A study of Mus musculus with 9 samples.

Results

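The 33 mouse genes described here encode the folding machinery of the endoplasmic reticulum (ER), the sensors of ER stress and the targets of the stress transcription factor ATF4. They were chosen by name, by their role in the ER stress response, from 57010 genes in a table of RNA sequencing counts. Earlier results of these data were known when the genes were chosen. Of the 33 genes, 21 form a chaperone and degradation arm (15 folding genes and 6 genes of ER-associated degradation), 8 form an ATF4 arm, and 4 are the stress sensors and Xbp1. A filter on low counts left 14747 genes to be tested, among them 32 of the 33. The degradation gene Derl3 had 0 to 4 counts per library and was not tested.

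The cells were primary cultured renal cells, a mixed culture grown in serum-containing medium from digested kidneys of wild-type mice. All 3 groups held 3 libraries of total RNA, collected 6 h after treatment. The first group received PBS, the second received 20 ng/mL TNFα (TNF), and the third received the same TNF dose together with 1 µM ACHP, an inhibitor of the IκB kinase that activates NF-κB. No group with ACHP alone was analysed here, so every comparison of the third group is of TNF with ACHP. Strain, age and sex of the mice are not in the labels, nor is it stated whether replicates came from separate animals or cultures, so p-values measure the spread between these libraries. In bulk RNA, fewer cells of a type and less RNA per cell cannot be told apart.

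Proteins that enter the secretory pathway fold in the ER with the help of chaperones, lectins and disulfide isomerases. When unfolded protein accumulates, the membrane sensors ATF6, IRE1 (Ern1) and PERK (Eif2ak3) are activated. ATF6 is cleaved to a transcription factor, and IRE1 splices Xbp1 mRNA so that it encodes another. Both factors raise transcription of ER chaperones and degradation genes through ER stress elements. PERK phosphorylates eIF2α, which lowers general translation while translation of Atf4 mRNA rises. ATF4 and its partners then act through C/EBP-ATF elements on genes of amino acid supply, redox balance and cell death. Gene counts do not show cleavage of ATF6, splicing of Xbp1 or translation of Atf4.

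The promoters of the chaperones and of the ATF4 targets carry different stress elements, and the windows below show these letters for some of the genes with a match. Called genes were preferred. Called genes without a match (Pdia3, Xbp1 and Sesn2) are not printed, nor are several uncalled genes with a match, such as Canx. Windows of RefSeq promoters (build GRCm38.p6, 250 bases before to 50 bases after each start) were found for 29 of the 33 genes. The ER stress element ERSE was searched as CCAAT and CCACG with 9 bases between, ERSE-II as ATTGG and CCACG with 1 base between, and the C/EBP-ATF element as TGATGNAA, all on both strands. ERSE was found in 9 of 18 genes of the chaperone and degradation arm, against 0.119% of 32851 promoter windows in all. ERSE-II was found in 2 of these 18, Dnajb11 and Herpud1, against 0.0365% of windows. The C/EBP-ATF element was found in 3 of 8 genes of the ATF4 arm, Asns, Chac1 and Trib3, against 3.97% of windows, and in Herpud1. None of the matches overlapped another. A match is a description of the letters in a window and not a measured binding site. The elements were searched because they are known for genes of these arms, so the shares beside all windows test no enrichment.

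The 250 bases before the start are printed 5′ to 3′ on the strand of the gene, with the fixed letters of each match in capitals. Hspa5 (chr2:34771840-34772089, plus strand) holds an ERSE, Hsp90b1 (chr10:86705445-86705694, minus strand) holds 2, and Calr (chr8:84846932-84847181, minus strand) and Pdia6 (chr12:17266339-17266588, plus strand) hold 1 each. These 4 genes were called lower with ACHP than with TNF.
Hspa5: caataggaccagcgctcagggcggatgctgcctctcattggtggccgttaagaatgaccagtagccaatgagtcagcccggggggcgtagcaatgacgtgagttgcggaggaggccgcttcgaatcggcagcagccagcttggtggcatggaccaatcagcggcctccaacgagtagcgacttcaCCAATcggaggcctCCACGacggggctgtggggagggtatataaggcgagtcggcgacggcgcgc
Hsp90b1: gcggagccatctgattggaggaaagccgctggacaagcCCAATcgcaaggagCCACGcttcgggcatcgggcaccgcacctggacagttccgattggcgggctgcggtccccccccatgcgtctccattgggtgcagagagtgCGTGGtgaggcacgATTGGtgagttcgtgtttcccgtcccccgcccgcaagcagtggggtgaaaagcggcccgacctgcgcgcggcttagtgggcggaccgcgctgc
Calr: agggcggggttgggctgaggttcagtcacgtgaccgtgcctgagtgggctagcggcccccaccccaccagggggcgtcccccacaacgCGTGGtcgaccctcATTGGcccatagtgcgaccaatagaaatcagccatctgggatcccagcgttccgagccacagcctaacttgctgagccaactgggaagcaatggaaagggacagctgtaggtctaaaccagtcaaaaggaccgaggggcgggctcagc
Pdia6: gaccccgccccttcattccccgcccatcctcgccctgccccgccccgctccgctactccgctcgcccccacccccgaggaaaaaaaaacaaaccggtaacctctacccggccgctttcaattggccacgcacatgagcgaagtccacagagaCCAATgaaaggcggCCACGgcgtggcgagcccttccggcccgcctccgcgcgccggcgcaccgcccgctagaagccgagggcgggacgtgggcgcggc
Asns (chr6:7693210-7693459, minus strand) and Chac1 (chr2:119350992-119351241, plus strand) hold a C/EBP-ATF element, and Herpud1 (chr8:94386179-94386428, plus strand) holds an ERSE-II and a C/EBP-ATF element.
Asns: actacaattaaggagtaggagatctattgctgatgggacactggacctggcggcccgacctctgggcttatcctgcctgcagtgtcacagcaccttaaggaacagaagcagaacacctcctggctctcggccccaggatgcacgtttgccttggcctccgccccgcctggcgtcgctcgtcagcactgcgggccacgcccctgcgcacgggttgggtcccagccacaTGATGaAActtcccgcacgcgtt
Chac1: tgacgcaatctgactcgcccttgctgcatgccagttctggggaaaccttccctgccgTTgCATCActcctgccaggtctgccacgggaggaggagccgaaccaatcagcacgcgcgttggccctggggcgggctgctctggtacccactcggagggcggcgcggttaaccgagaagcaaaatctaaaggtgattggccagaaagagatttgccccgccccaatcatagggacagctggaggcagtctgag
Herpud1: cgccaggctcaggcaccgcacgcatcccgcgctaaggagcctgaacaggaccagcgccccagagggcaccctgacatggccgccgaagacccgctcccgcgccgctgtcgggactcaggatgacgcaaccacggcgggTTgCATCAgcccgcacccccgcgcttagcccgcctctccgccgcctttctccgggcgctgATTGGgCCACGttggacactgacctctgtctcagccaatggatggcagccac
The ERSE of Hspa5 lies 65 to 47 bases before the start, with CCACG nearer to the start. In Calr it lies 162 to 144 bases before the start on the opposite strand, and in Hsp90b1 the pair lies 212 to 194 and 107 to 89 bases before the start on opposite strands. Of 8 tested genes with an ERSE, Hspa5, Hsp90b1, Calr and Pdia6 were called lower with ACHP than with TNF, where 4.46% of all genes were. The other 4, Canx, Creld2, Dnajc3 and Syvn1, were called in no comparison. Whether the element and the calls are linked was not tested. Pdia3, Xbp1 and Sesn2, which did pass a test, held no exact match to any of the 3 elements in their windows.

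**Figure D1:**
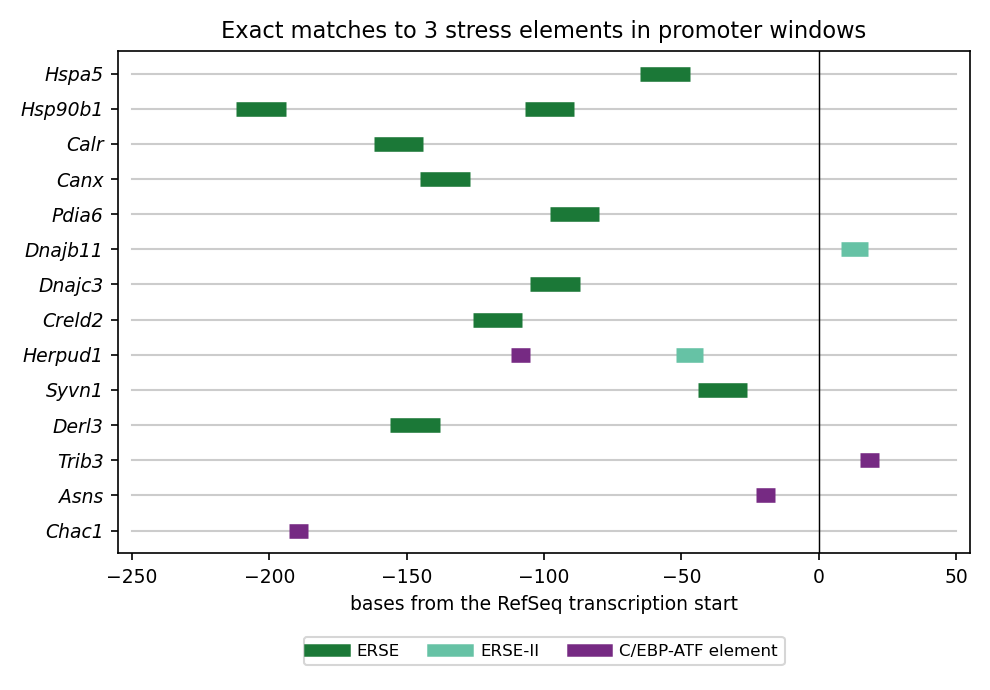
Position of exact matches to ERSE, ERSE-II and the C/EBP-ATF element (coloured blocks) relative to the RefSeq transcription start, in bases, in the promoter windows of the 14 genes with a match. ERSE blocks lie in genes of the chaperone and degradation arm, including Canx, Creld2, Dnajc3 and Syvn1, which were not called in any comparison, and C/EBP-ATF blocks lie in Asns, Chac1, Trib3 and Herpud1.

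Libraries held 14194295 to 20892176 counts. Vcam1, an adhesion molecule induced through NF-κB, rose with TNF by 2.27 and fell by 2.15 with added ACHP on the log2 scale (SE 0.08 for both, edgeR adjusted p = 1.0e-13 and 2.0e-13), which checks the treatment labels. Epithelial markers summed to 4753 to 4817 CPM (counts scaled to a common library size) with PBS, 4611 to 4655 with TNF and 4905 to 5226 with ACHP, and 5 of 8 were called higher with ACHP than with TNF. Segment markers were low: 10 proximal tubule genes summed to 30.4 to 48.2 CPM, led by Ggt1, with Slc22a6 and Miox at 0 in every library, and 12 genes of the distal nephron and collecting duct summed to 51.4 to 78.7, led by Scnn1a, with Aqp2 at 0. Neuronal transcripts set libraries apart: a list of 14 neuron genes summed to 20.0 CPM in PBS replicate 1 and 17.8 to 19.6 CPM with ACHP, but to 44.6 to 104.5 CPM in PBS replicates 2 and 3 and all TNF libraries. Oligodendrocyte markers (123 CPM in PBS replicate 1, 110 to 115 with ACHP, 141 to 193 in the others) and astrocyte markers (173, 168 to 178, and 212 to 228) split the libraries alike, with 3 of 4 and 4 of 6 called lower with ACHP than with TNF. Macrophage markers summed to 32.0 to 35.3 CPM under PBS, 32.8 to 34.5 with TNF and 14.6 to 15.7 with ACHP, and 7 of 9 tested were called lower with ACHP than with TNF. Fibroblast and mural markers summed to 808 to 922, 724 to 749 and 624 to 690 CPM in the same order, with 4 of 9 called lower with ACHP than with TNF. Markers of plasma cells, which have a large ER, were near 0, with Mzb1 and Pou2af1 at 0 in every library.

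The folding genes were among the abundant transcripts of these cells. Per exon length, Pdia3, a disulfide isomerase for glycoproteins, stood at 1406 TPM (a share of transcripts, mean of 9 libraries), and the calcium-binding lectin chaperone Calr at 1402. The membrane lectin Canx was at 1006, the HSP90 family chaperone Hsp90b1 at 824, and Hspa5 (BiP), the HSP70 family chaperone that also holds the stress sensors inactive, at 807. Atf4 was the highest of its arm, at 344 TPM, followed by asparagine synthetase Asns at 191. Apart from Derl3 at 0.283, the lowest was the sensor Ern1 at 19.6 TPM, beside the cell death factor Ddit3 and the kinase-like protein Trib3, both at 23.8. Together, the 15 folding genes made up 0.760% ± 0.023 of all TPM with PBS, 0.756% ± 0.015 with TNF and 0.688% ± 0.015 with ACHP (SD, n = 3 each).

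**Figure D2:**
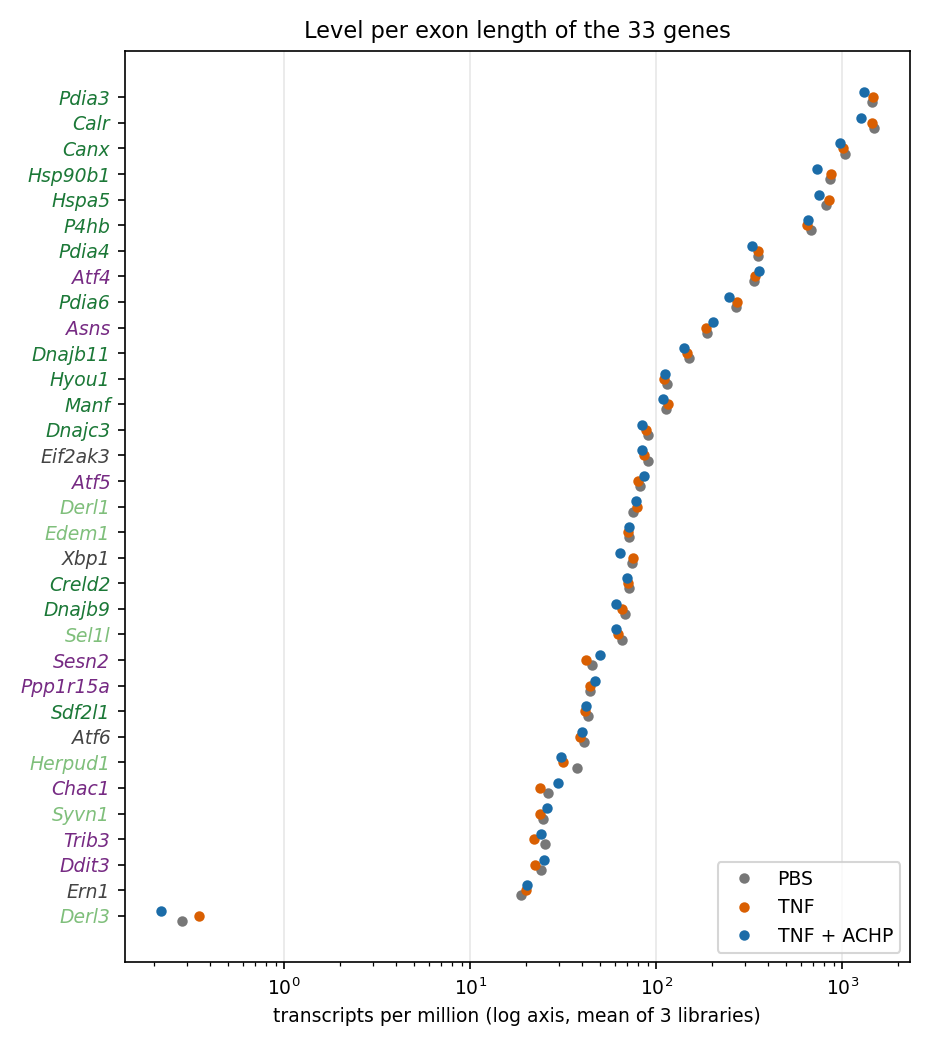
Level of each of the 33 genes in TPM on a log axis, with a point for the mean of 3 libraries in each group. Gene names are dark green for folding, light green for degradation, grey for sensors and Xbp1, and purple for the ATF4 arm. The folding genes Pdia3, Calr, Canx, Hsp90b1, Hspa5 and P4hb stand highest, and the 3 groups lie close together for every gene but Derl3, which had few counts.

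With TNF alone, no gene of the chosen set was called different from PBS. None of the 32 genes tested passed, at an adjusted p under 0.05, in edgeR's quasi-likelihood test over all genes, where 6.22% of all genes were called (3.31% higher and 2.91% lower). DESeq2 also called 0, and at an unadjusted p under 0.05 there was 1 higher gene (Ern1) and 1 lower (Herpud1). Log2 fold changes lay between -0.22 and 0.13, with standard errors of 0.03 to 0.12, and the median over the 20 tested genes of the chaperone and degradation arm was -0.01, against -0.002 over all genes. Every TNF library lay above every PBS library for 2 of the 32 genes and below for 3, where 12.3% and 11.5% of all genes did so. For Hspa5 the log2 fold change was 0.07, with a 95% interval of 0.00 to 0.15.

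The lowest of these values belonged to Herpud1, an ER membrane protein that links substrates to the degradation complex and whose promoter holds both kinds of element. Herpud1 stood at 20.9, 25.4 and 22.2 CPM under PBS, 19.5, 19.5 and 20.0 under TNF, and 18.3, 19.6 and 19.7 with ACHP. All PBS libraries lay above all TNF libraries. The log2 fold change with TNF was -0.22 ± 0.08 (SE), with an edgeR adjusted p of 0.10. Without PBS replicate 1 it was -0.28 and passed (edgeR adjusted p = 0.046). A term for the libraries rich in neuronal transcripts gave the same values. Among the PBS and TNF libraries that term sets only PBS replicate 1 apart, so it is no separate check.

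With ACHP added to TNF, a set of abundant ER chaperones was lower than with TNF alone. Hspa5, Hsp90b1, Calr, Pdia3 and Pdia6 fell by 9.37% to 16.1%, and with them Xbp1, which encodes a factor that acts on chaperone genes. The stress-induced metabolic regulator Sesn2 rose by 18.8%. With a term for the libraries rich in neuronal transcripts, 0 of these 7 kept the call, and with the neuron list as a covariate 2 did. Of the 32 genes, 6 were called lower and 1 higher with edgeR, where 4.46% of all genes were called lower and 2.71% higher (7.17% in all). Among the 15 folding genes, 5 were called lower and 0 higher, the median log2 fold change was -0.09 against 0.003 over all genes, and 13 of 15 had a negative sign. In 8 of the 15 every ACHP library lay below every TNF library, where 13.3% of all genes did so. Abundant genes are measured with less error. Of 1013 genes above 200 CPM on average, a level chosen after the data were seen, 8.09% were called lower. Of the chosen set, 10 genes lay above that level and 5 of these were called lower.

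Hspa5 (ENSMUSG00000026864, chr2:34661982-34667559 on GRCm39, counted over its exons) stood at 970.9, 966.9 and 939.5 CPM with TNF and 869.6, 803.8 and 864.9 with ACHP, and 932.6, 920.9 and 880.8 with PBS. All ACHP libraries lay below all others. The log2 fold change against TNF was -0.18 ± 0.04 (SE), a fall of 11.8% (edgeR adjusted p = 0.0032).

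Hsp90b1 (ENSMUSG00000020048, chr10:86526073-86541373), the ER form of HSP90 that folds integrins and Toll-like receptors, showed the largest fall among the 32 genes in log2 terms. Its levels were 936.2, 960.3 and 835.0 CPM under PBS, 977.9, 936.5 and 912.7 under TNF, and 833.4, 736.6 and 802.6 with ACHP. The ACHP libraries were lowest, although PBS replicate 3 was barely above the highest of them. The change against TNF was -0.25 ± 0.05 (SE), a fall of 16.1% (edgeR adjusted p = 0.0026). Of its exon length, 15.7% is shared with other genes, so some of its reads were not counted.

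Calr (ENSMUSG00000003814, chr8:85568479-85573563), at a log2 fold change of -0.00 with TNF (95% interval -0.08 to 0.07), was lower with ACHP. It stood at 1128, 1159 and 1073 CPM under PBS, 1121.5, 1127 and 1105 under TNF, and 986, 928 and 1007 with ACHP. No ACHP library overlapped either other group. The log2 fold change against TNF was -0.20 ± 0.04 (SE), a fall of 12.9% (edgeR adjusted p = 0.0015).

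The isomerases Pdia3 (ENSMUSG00000027248, chr2:121244256-121269168), which works with Calr and Canx, and Pdia6 (ENSMUSG00000020571, chr12:17316546-17334771), which also acts on the stress sensors, were called lower too. Pdia3 was at 1276, 1226 and 1200.1 CPM with TNF and at 1129, 1040.4 and 1096 with ACHP, beside 1221, 1227 and 1119 with PBS. Pdia6 was at 274, 262 and 275 CPM with TNF and at 247, 246 and 243 with ACHP, beside 263, 264 and 267 with PBS. ACHP and TNF libraries did not overlap for either gene, and the PBS libraries of Pdia3 did overlap those with ACHP. Log2 fold changes against TNF were -0.18 ± 0.04 for Pdia3 and -0.14 ± 0.03 for Pdia6 (SE, edgeR adjusted p = 0.0071 and 0.011). Pdia3 lost its call without TNF replicate 1 (adjusted p = 0.055) or ACHP replicate 2 (0.05), and Pdia6 without TNF replicate 1 (0.064) or 3 (0.059). Hspa5, Hsp90b1 and Calr were called whichever of the 9 libraries was left out.

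The other 10 folding genes were not called. Pdia4 had a log2 fold change of -0.11 ± 0.04 (SE, edgeR adjusted p = 0.099), and Manf, a secreted protein retained with BiP, had -0.09 ± 0.04 (0.24), both with no overlap of TNF and ACHP libraries. Canx, the membrane-bound counterpart of Calr, was at 1266, 1267 and 1244 CPM with TNF and at 1225, 1218 and 1224 with ACHP. Its log2 fold change was -0.04, with a 95% interval of -0.11 to 0.02. The isomerase P4hb was at 0.00 (-0.06 to 0.07) and the HSP70-like Hyou1 at 0.01 (-0.07 to 0.08), so these intervals exclude the estimates for Hspa5, Hsp90b1 and Calr; the differences between genes were not tested. The co-chaperones Dnajb9, Dnajb11 and Dnajc3 lay between -0.10 and -0.06, and Sdf2l1 and Creld2 at -0.01 and -0.02 with wider errors of 0.12 and 0.07.

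Per exon length, the 15 folding genes summed to 7736, 7494 and 7461 TPM with TNF and to 6944, 6708 and 6985 with ACHP, after 7698, 7766 and 7338 with PBS. The ACHP libraries were below all others. The mean sum was 684 TPM lower with ACHP than under TNF, and Calr, Pdia3, Hsp90b1 and Hspa5 accounted for 86.5% of this difference, with Calr alone at 26.9%.

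**Figure D3:**
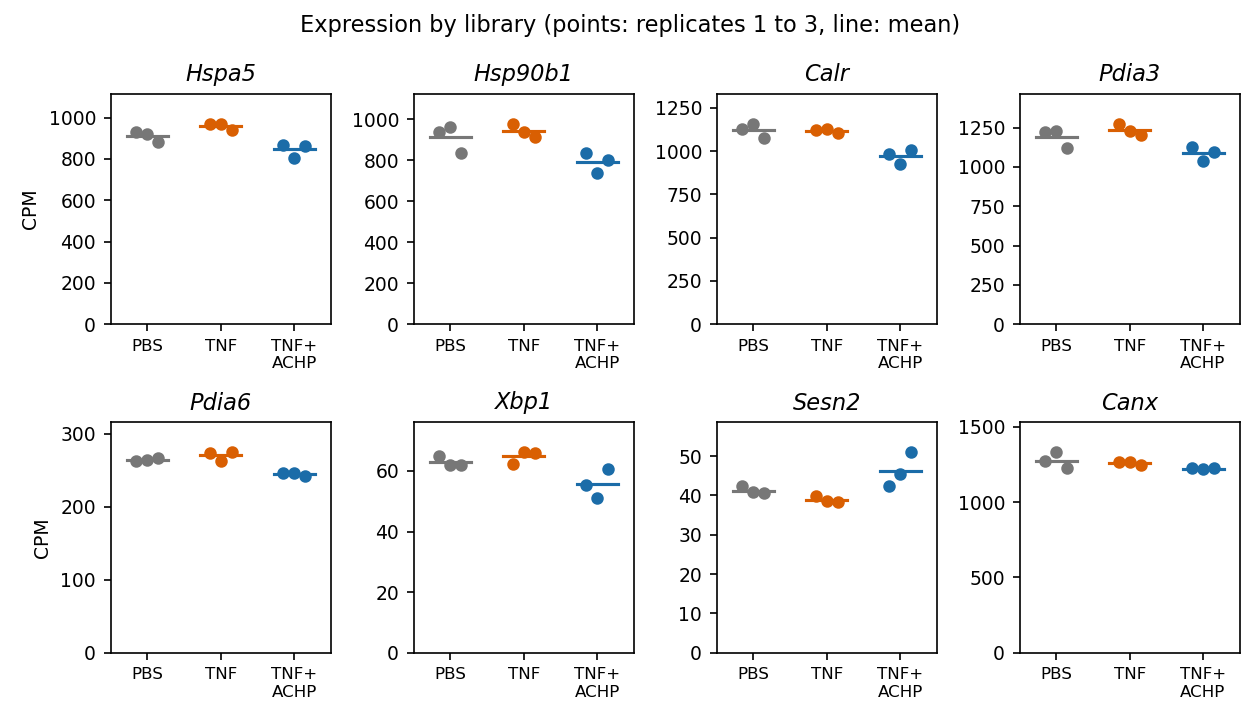
CPM of the 7 genes called between TNF with ACHP and TNF, and of Canx for comparison, with a point for each library (replicates 1 to 3) and a line for the group mean, on axes that start at 0. For each called gene the ACHP points do not overlap the TNF points, and Canx stays between 1218 and 1332 CPM in all 9 libraries.

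Of the sensors and Xbp1, Xbp1 alone (ENSMUSG00000020484, chr11:5470659-5475893) was called. Xbp1 was at 64.8, 62.0 and 62.0 CPM under PBS, 62.2, 66.2 and 65.9 under TNF, and 55.3, 50.9 and 60.5 with ACHP. The ACHP libraries were lowest, with replicate 3 close to the PBS libraries. The log2 fold change against TNF was -0.22 ± 0.06 (SE), a fall of 14.4% (edgeR adjusted p = 0.02). It lost the call without TNF replicate 2 (adjusted p = 0.089), TNF replicate 3 (0.079) or ACHP replicate 2 (0.14). The sensors Atf6, Ern1 and Eif2ak3 had log2 fold changes of 0.04, 0.01 and -0.05 against TNF, none of them called.

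Of the degradation genes, 0 of the 5 tested were called with ACHP against TNF by edgeR or DESeq2, with 0 at an unadjusted p under 0.05, and their median log2 fold change was -0.02. Together with the folding genes, the 20 tested genes of the chaperone and degradation arm had a median of -0.05. The ubiquitin ligase Syvn1, which shares 11.1% of its exon length with other genes, had the highest value, 0.13 ± 0.07 (SE, edgeR adjusted p = 0.25). Its partner Sel1l, the mannosidase-like Edem1 and the channel component Derl1 lay between -0.03 and 0.01.

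All 8 genes of the ATF4 arm had a positive log2 fold change with ACHP against TNF, and 1 was called. The median was 0.13, with a range of 0.06 to 0.33, and 50.9% of all genes had a positive sign. In 5 of the 8 genes every ACHP library lay above every TNF library, where 12.5% of all genes did so.

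Sesn2 (ENSMUSG00000028893, chr4:132219343-132237812), a leucine sensor that restrains mTORC1 and is a target of ATF4 and p53, was the called gene. It stood at 42.3, 40.8 and 40.5 CPM under PBS, 39.8, 38.6 and 38.2 under TNF, and 42.3, 45.4 and 51.0 with ACHP. The ACHP libraries were highest, with replicate 1 only just above PBS replicate 1. The log2 fold change against TNF was 0.25 ± 0.06 (SE), a rise of 18.8% (edgeR adjusted p = 0.018). The call was lost without TNF replicate 2 (adjusted p = 0.074), TNF replicate 3 (0.071) or ACHP replicate 3 (0.10).

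Chac1, which degrades glutathione, and Asns came next and missed the threshold. Chac1 was at 9.87, 9.51 and 11.6 CPM with TNF and at 11.7, 12.7 and 14.6 with ACHP, beside 10.1, 11.4 and 12.1 with PBS. On the log2 scale it was 0.33 ± 0.11 higher (SE, edgeR adjusted p = 0.072), the highest of the 32 genes and the one with the widest error among the ATF4 arm. Asns was at 132, 137 and 137 CPM with TNF and at 142, 149 and 150.1 with ACHP, with a log2 fold change of 0.12 ± 0.04 (SE, edgeR adjusted p = 0.067). Their ACHP libraries lay above their TNF libraries. Without ACHP replicate 1 both passed the test (adjusted p = 0.044 for Chac1 and 0.041 for Asns), and without PBS replicate 3 Asns did (0.046).

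Atf4 mRNA itself was at 207, 213 and 200.05 CPM under PBS, 219, 209.7 and 216 under TNF, and 228, 219 and 222 with ACHP. Its lowest ACHP library was barely above its highest TNF library. Against TNF the estimate was 0.06 ± 0.04 on the log2 scale (SE, edgeR adjusted p = 0.42).

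Ddit3 (CHOP), a factor of stress-induced cell death, was at 10.4, 11.9 and 10.1 CPM under PBS, 10.2, 9.31 and 11.2 under TNF, and 11.1, 10.8 and 12.1 with ACHP, and the groups overlapped. It shares 10.9% of its exon length with other genes. Ppp1r15a (GADD34), the phosphatase subunit that reverses eIF2α phosphorylation, was at 31.7, 33.5 and 36.7 CPM, then 35.1, 34.3 and 34.9, then 37.8, 34.6 and 37.8, in the same order. Log2 fold changes against TNF were 0.14 ± 0.10 and 0.07 ± 0.06 (SE, edgeR adjusted p = 0.46 and 0.55). The kinase-like Trib3 and the factor Atf5 had 0.13 and 0.12, both not called.

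**Figure D4:**
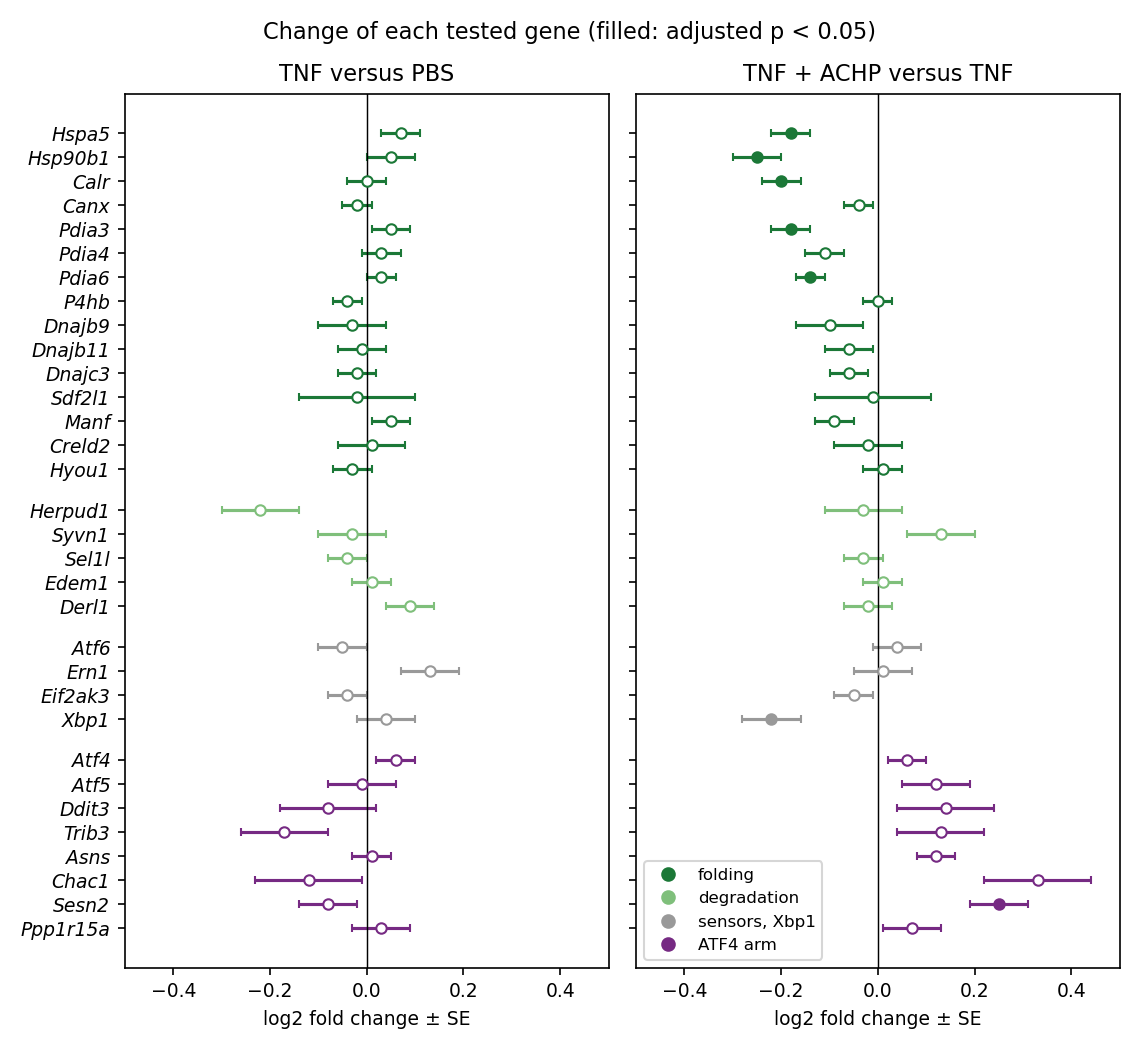
Log2 fold change with its standard error for each of the 32 tested genes, TNF against PBS on the left and TNF with ACHP against TNF on the right, coloured by role, with filled points at an adjusted p under 0.05. All points on the left are open and lie between -0.22 and 0.13, while on the right 5 folding genes and Xbp1 are filled below 0 and Sesn2 is filled above 0.

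Set side by side, the folding genes were lowest and the ATF4 arm highest in the ACHP libraries. The mean log2 CPM of the 15 folding genes, relative to their mean over 9 libraries, was -0.003 to 0.047 with PBS, 0.012 to 0.053 with TNF and -0.110 to -0.033 with ACHP. The same measure for the ATF4 arm was -0.039 to -0.008, -0.110 to -0.011 and 0.046 to 0.160. In neither arm did the ACHP libraries overlap the others. The ATF4 arm minus the chaperone and degradation arm was -0.055, -0.038 and -0.045 with PBS, -0.109, -0.137 and -0.018 under TNF, and 0.087, 0.132 and 0.183 with ACHP. The libraries with the lowest folding level (ACHP replicate 2) and the highest ATF4 arm level (ACHP replicate 3) were different ones. Since the genes of both arms were chosen with results of these data known, no p is given for these means.

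**Figure D5:**
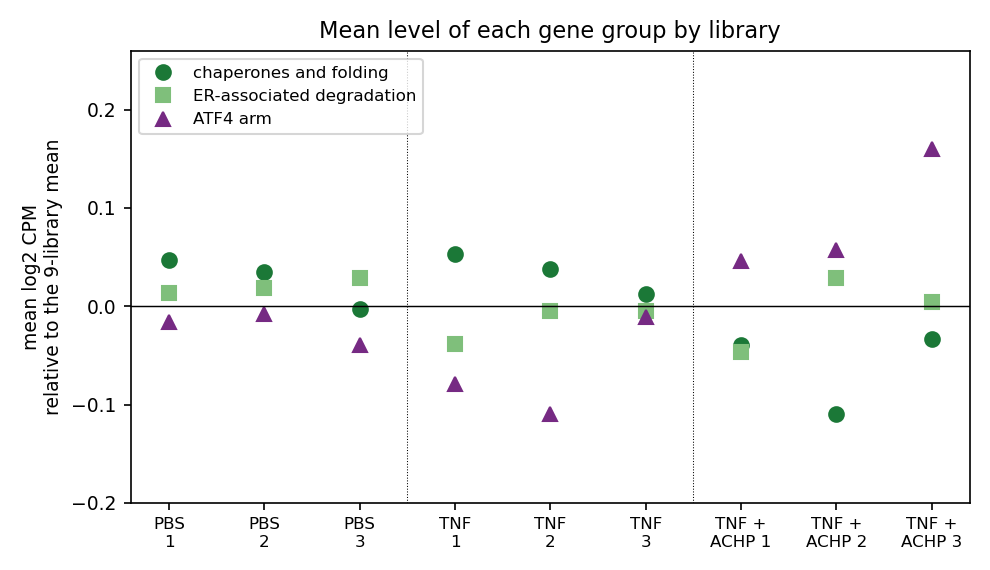
Mean log2 CPM of the 15 folding genes (circles), the 5 tested degradation genes (squares) and the 8 genes of the ATF4 arm (triangles) in each of the 9 libraries, relative to the mean over all libraries. The circles are below 0 and the triangles above 0 in all 3 ACHP libraries, and the degradation genes stay between -0.047 and 0.029.

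The calls between TNF and ACHP depended on how the model treated the neuronal transcripts, which were high in all 3 TNF libraries and low in all 3 ACHP libraries. With a term for the 5 libraries rich in these transcripts, 0 of the 32 genes were called, and calls over all genes went from 1058 to 143. The estimates in that fit were -0.23 ± 0.07 for Hspa5, -0.31 ± 0.08 for Hsp90b1, -0.21 ± 0.07 for Calr, -0.24 ± 0.07 for Pdia3, -0.13 ± 0.06 for Pdia6, -0.29 ± 0.10 for Xbp1 and 0.19 ± 0.12 for Sesn2 (log2 fold change and SE, edgeR adjusted p = 0.087 to 0.53). With the log2 sum of the neuron list as a covariate instead, Hsp90b1 (-0.29 ± 0.07, edgeR adjusted p = 0.03) and Hspa5 (-0.21 ± 0.05, 0.044) kept the call and the other 5 did not (0.051 to 0.35). With the library term, the comparison rests on PBS replicate 1, the only library outside the ACHP group with few neuronal transcripts. The mean level of the folding genes was 0.047 in PBS replicate 1, 0.035 and -0.003 in PBS replicates 2 and 3, and -0.110 to -0.033 with ACHP. PBS replicate 1 is a single library without a spread, and the part of the neuronal transcripts in the result was not tested. The macrophage and fibroblast markers were also lower with ACHP, and their part in the result was not tested.

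Against PBS, the cells with TNF and ACHP had lower Calr and Hsp90b1. These 2 genes were called lower and 0 higher among 32, where 3.87% of all genes were called lower and 2.18% higher (6.04% in all), and 4.74% of those above 200 CPM were lower. At an unadjusted p under 0.05 there were 4 higher and 9 lower genes. The groups did not overlap for 4 higher and 9 lower genes, where 10.7% and 9.91% of all genes were separate in these directions. Calr fell by 0.20 on the log2 scale (SE 0.04, 13.1% lower, edgeR adjusted p = 0.0017), the same as against TNF. Hsp90b1 also fell by 0.20 (SE 0.05, 13.2% lower, edgeR adjusted p = 0.015), but lost the call without PBS replicate 2 (adjusted p = 0.086) or ACHP replicate 2 (0.081), and in DESeq2 (0.054). With the neuronal library term this comparison rests on PBS replicate 1 as the only PBS library, so no p is given for that fit. With the neuron list as a covariate both Hsp90b1 and Calr lost the call (edgeR adjusted p = 0.12 and 0.077). This comparison shares its ACHP libraries with the one against TNF.

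Hspa5, Pdia3, Pdia6 and Xbp1 had log2 fold changes of -0.11, -0.13, -0.11 and -0.18 against PBS (edgeR adjusted p = 0.085, 0.063, 0.054 and 0.064) and were not called. DESeq2 called Hspa5, Pdia3 and Pdia6 lower (adjusted p = 0.036, 0.025 and 0.037), and edgeR with total counts alone called all 4. Without PBS replicate 3, whose mean level of folding genes was the lowest of the PBS group, 4 genes were called lower, with Hspa5 (adjusted p = 0.028) and Pdia3 (0.0057) added. Single members also passed without another library: Pdia3 (0.035), Sesn2 (0.043, higher) and Asns (0.044, higher) without ACHP replicate 1, Xbp1 (0.02) without ACHP replicate 3, and Herpud1 (0.023, lower) without PBS replicate 1. All 15 folding genes had a negative sign, with a median of -0.08 against 0.005 over all genes. Over the 20 tested genes of the chaperone and degradation arm the median was -0.07. Of the ATF4 arm 0 of 8 were called (3 at an unadjusted p under 0.05), 7 had a positive sign and the median was 0.11, with Asns at 0.13 and Atf4 at 0.11 (edgeR adjusted p = 0.06 and 0.072). Among the 4 libraries with few neuronal transcripts, PBS replicate 1 and the 3 with ACHP, Hsp90b1 was at -0.24 and Calr at -0.21. A single PBS library shows no spread within its group, so no p is given for these values.

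Further genes of the ER and ATF4 pathways, 165 in 9 lists, of which 161 were tested, were called at about the rate of all genes. With ACHP against TNF 7 rose and 5 fell, or 7.45% against 7.17% of all genes; with TNF against PBS it was 6.83% against 6.22%, and with ACHP against PBS 4.97% against 6.04%. Of the genes named here, 3 of 12 with ACHP against TNF (Gdf15, Creb3l1 and Creb3l2), 3 of 10 with TNF (Gdf15, Vldlr and Vars1) and 2 of 7 with ACHP against PBS (Creb3l2 and Lonp1) were called whichever library was left out. The calls of the others were lost in 2 to 8 of 9 such fits. Gdf15, a stress cytokine that ATF4 and CHOP can induce, was at 129 ± 18.8 CPM under PBS, 94.8 ± 6.67 with TNF and 149 ± 17.6 with ACHP (SD, n = 3). It fell by 0.45 on the log2 scale with TNF (SE 0.09, edgeR adjusted p = 0.0030) and was 0.65 ± 0.09 higher with ACHP than with TNF (5.6e-05). In this comparison Gdf15 was also the 1 pathway gene called with the neuronal term (0.72, edgeR adjusted p = 0.011). Creb3l1 and Creb3l2, ER-anchored relatives of ATF6 that act on secretory pathway genes, fell by 0.34 (SE 0.08, edgeR adjusted p = 0.011) and 0.20 (SE 0.04, 0.0040).

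Among 20 other folding genes, Creld1 rose by 0.26 (SE 0.06, edgeR adjusted p = 0.0086) and the disulfide reductase Dnajc10, which TNF had raised by 0.13, fell by 0.14 with ACHP (0.025). Of 20 other degradation genes, Herpud2 rose by 0.19 (edgeR adjusted p = 0.032, lost in 4 of 9 leave-one-out fits), where 2.71% of all genes were called higher, and 18 had a positive sign, as did 50.9% of all genes. The signal peptidase subunit Spcs3 was the 1 called gene of 22 for translocation and N-glycosylation (0.12, edgeR adjusted p = 0.028). None of 20 genes for transport between ER and Golgi was called in any of the 3 comparisons, with 0 at an unadjusted p under 0.05 in the higher direction and 0 to 3 in the lower. Besides Creb3l1 and Creb3l2, the eIF2α gene Eif2s1 fell among the regulators (-0.14, edgeR adjusted p = 0.021). With TNF against PBS Eif2s1 had been called higher, at 0.10 to 0.15 in the leave-one-out fits, and lost that call in 5 of 9 of them.

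Of 16 tested ATF4 partners and other stress targets, Gdf15 and the alanine aminotransferase Gpt2 rose with ACHP against TNF, the latter by 0.24 (edgeR adjusted p = 0.025). Against PBS 4 of the 16 rose, where 2.18% of all genes did, with Atf3 at 0.36, the mitochondrial protease Lonp1 at 0.20 and the mTORC1 inhibitor Ddit4 at 0.17 (edgeR adjusted p = 0.032, 0.0057 and 0.037). Atf3 and Ddit4 each lost the call in 6 of 9 leave-one-out fits. Lonp1 had also risen under TNF, and Vldlr and Stc2 had fallen with TNF by 0.29 and 0.39 (edgeR adjusted p = 0.0045 and 0.046). The aspartate aminotransferase Got1 rose with ACHP against TNF (0.17, edgeR adjusted p = 0.049), and the mitochondrial folate enzyme Mthfd2 against PBS (0.18, 0.024).

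All 20 cytosolic aminoacyl-tRNA synthetases, many of which are ATF4 targets, had a positive sign with ACHP against PBS, where 51.9% of all genes did. Of these, 0 were called and 7 had an unadjusted edgeR p under 0.05, with a median of 0.08. With ACHP against TNF 13 of the 20 had a positive sign (median 0.02), and with TNF against PBS 14 did (median 0.04). With TNF alone Vars1, Hars1 and Kars1 rose by 0.23, 0.17 and 0.14 (edgeR adjusted p = 0.00085, 0.043 and 0.026), and with ACHP against TNF Vars1 fell by 0.14 and Wars1 rose by 0.18 (0.033 and 0.017). Of 9 amino acid transporters, Slc7a1 fell by 0.11 with TNF and the glutamine transporter Slc1a5 was 0.22 higher with ACHP than with PBS (edgeR adjusted p = 0.048 and 0.043), calls lost in 8 and 6 of 9 leave-one-out fits. Of the degradation genes outside the 33, the mannosidase-like Edem3 fell by 0.18 under TNF, and the lectin Erlec1 fell by 0.19 with ACHP against PBS (edgeR adjusted p = 0.025 and 0.030).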

How the data were processed

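RNA sequencing counts per Ensembl gene were deposited for 9 libraries. Per the file headers, the counter was featureCounts 2.0.1 with its defaults, and the annotation Ensembl 109 (GRCm39), so counts are not split by strand and reads on several genes or places are not counted. The submitters' processing notes name STAR, featureCounts, DESeq2 and mm10. Symbols were found for 52029 identifiers, which hold 99.6% of the counts. Counts were fitted in R 4.3.3 with edgeR 4.0.16 and limma 3.58.1 (filterByExpr, TMM factors 0.993 to 1.01, quasi-likelihood test, 3 group means over 9 libraries, coefficient of variation 4.01%), with Benjamini-Hochberg adjustment over 14747 genes and a threshold of 0.05. The fit was tested on simulated data. CPM use TMM scaling; TPM use the exon length in the table. The members and lists were chosen with earlier results of these data known. Values are given for called members and Hspa5, Xbp1, Atf4, Ddit3 and Ppp1r15a; of each further list, up to 3 called genes per comparison with the largest change are named. Canx, Herpud1, Chac1 and Asns were added after their values were seen. Alternatives were DESeq2 1.42.0, other scalings, filters and thresholds, fewer libraries, a replicate block, and terms for neuronal transcripts. Promoters are from RefSeq (GRCm38.p6).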

Additional observations from a re-analysis of the deposited data

How the results depend on the processing

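No called value of a single member changed sign under the alternatives run. The 812 recomputed values covered picked members only, with Canx, Herpud1, Chac1 and Asns added after their values were seen. Of these values, 751 kept their side of the threshold, 33 lost a call and 28 gained one. Only calls of the main fit were open to loss: 7 members with ACHP against TNF, 2 against PBS and 0 with TNF. The 33 losses fell on these few calls, so 751 of 812 does not measure how stable the calls were. With a term for the 5 libraries rich in neuronal transcripts, 0 members were higher and 0 lower with ACHP against TNF. In that fit 1 was lower with TNF against PBS (Herpud1), the same result as without PBS replicate 1, which the term sets apart. With ACHP against PBS the term leaves PBS replicate 1 as the only PBS library compared, so no count is given. The chaperone and degradation median over 20 tested genes went from -0.05 to -0.08 with ACHP against TNF. It went from -0.07 to -0.09 with ACHP against PBS, and from -0.01 to 0.01 with TNF against PBS. Each of these shifts was larger than the spread between replicates. With the log2 sum of the neuron list as a covariate, 2 members were lower (Hsp90b1 and Hspa5) and 0 higher against TNF, and 0 lower against PBS. The arm median with this covariate was -0.07 against TNF and -0.09 against PBS. The 4 libraries with few neuronal transcripts, a choice made after seeing the data, gave an arm median of -0.09 against PBS, with 1 PBS library among them. The cause was not tested.

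The count called higher with ACHP against TNF was 3 in the 6 libraries compared and 0 at an adjusted p under 0.01. The count lower against PBS was 6 with total counts alone, 4 with no filter, 4 with DESeq2 and 1 at an adjusted p under 0.01. Leaving out each library in turn gave 0 to 3 higher and 4 to 6 lower against TNF, and 0 to 2 higher and 1 to 4 lower against PBS. With TNF against PBS it gave 0 to 1 lower, and a chaperone and degradation median of -0.01 to 0.01. ATF4 arm medians moved by less than the spread between replicates.

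The labels do not say whether replicate numbers pair the libraries. Deviations of same-numbered libraries correlated at -0.1 to 0.174, which does not settle it. A block for these numbers moved the calls over all genes from 1058 to 1175 with ACHP against TNF. The calls went from 917 to 945 with TNF and from 891 to 988 with ACHP against PBS. With a replicate block, 2 members were higher (Sesn2 and Chac1) and 6 lower against TNF, 4 lower against PBS, and 0 called with TNF.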
